A study of Bos taurus with 2 samples.

Results

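The genes described here encode 9 RNA-binding proteins that have been linked, in work on other species, to the sorting of RNA into extracellular vesicles: YBX1, HNRNPA2B1, SYNCRIP, HNRNPA1, HNRNPC, HNRNPK, PTBP1, ELAVL1 and NCL. They were taken by gene name from the array files, which gave 27 of 43652 non-control probes and 9 of 15571 named genes. The arrays measured the messenger RNAs that encode these proteins, not the proteins and not the RNAs they carry. RNA came from the exosome pellet of bovine raw milk whey and from the supernatant above that pellet, on 1 array each. The pellet was spun at 10000 g for 90 min and spun again in 2 washes, per the labels. Both fractions came from Holstein milk, and the RNA of 3 milk samples was mixed equally before 100 ng was labelled. With 1 array per fraction there is no spread between samples, so no test was made and no p-value is given.

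Milk vesicles are small membrane particles released by the cells of the gland, and they enclose messenger RNA and microRNA of those cells. RNA-binding proteins recognise short sequence or structural features of an RNA, and some of them travel with it into a vesicle. In human T cells HNRNPA2B1 binds the motif GGAG in microRNAs that are exported in exosomes, and in mouse hepatocytes SYNCRIP binds GGCU in exported microRNAs. In human cell lines YBX1 is needed for the export of some microRNAs, and ELAVL1, also called HuR, binds AU-rich elements in messenger RNAs. Most of these proteins also act in the nucleus or on ribosomes of every cell, so their messenger RNAs are made in nearly all tissues.

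Each probe is 60 bases long, and the design places it on the transcript at the position given with its name. In 5 member probes the genomic coordinates run over more than 65 bases, so that at that site the probe is broken by an intron. From that site its whole sequence lies together only in spliced RNA. Whether an unbroken copy lies elsewhere in the genome was not analysed. Of the 5 intron-broken probes, 4 are printed 5′ to 3′. A further 2 are printed that were measured in both fractions and lie upstream of another probe of their gene. Capitals mark GGAG or GGCT, the DNA form of GGCU, where either is present.
HNRNPC position 520: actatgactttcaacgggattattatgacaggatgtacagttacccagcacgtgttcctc
HNRNPC position 661: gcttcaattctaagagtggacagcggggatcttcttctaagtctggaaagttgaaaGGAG
HNRNPK position 591: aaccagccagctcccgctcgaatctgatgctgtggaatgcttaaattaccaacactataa
NCL position 365: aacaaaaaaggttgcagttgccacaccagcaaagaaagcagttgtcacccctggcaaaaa
YBX1 position 392: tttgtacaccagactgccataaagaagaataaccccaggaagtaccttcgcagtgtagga
YBX1 position 992: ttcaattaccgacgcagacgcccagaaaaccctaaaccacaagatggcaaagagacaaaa

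In build Btau_3.1, per the array files, the HNRNPC probes lie at chr10:25301402-25316570 and chr10:25316652-25317229 on the plus strand. The HNRNPK probe lies at chr8:81415892-81416447 and the NCL probe at chr2:123409328-123409387, both on the minus strand. The YBX1 probes lie at chr3:110468440-110471217 and chr3:110463961-110464020 on the minus strand. The NCL probe and the YBX1 probe at position 992 are unbroken. The other 4 are intron-broken. Of the 5 intron-broken member probes, all 5 were detected in exosome RNA and 1, that of HNRNPK, also in supernatant RNA. Whether a probe lies in coding or untranslated sequence was not analysed here.

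In exosome RNA all 27 member probes were well above background, and in supernatant RNA 6 of them were, by the scanner software's own call against the local background. Over all probes that call was given to 58.5% in exosome and 13.1% in supernatant RNA. With the software's weaker flag, 13 member probes passed in supernatant RNA, beside 46.5% of all probes. Of all exosome-detected probes 20.8% were also detected in the supernatant, beside 22.2% of the member probes, so the members' share lay near the background. By gene, 9 of 9 members were detected in exosome RNA, against 69.2% of all named genes. In the supernatant 4 of 9 were detected, YBX1, HNRNPA1, HNRNPK and NCL, against 22.9% of all named genes and 31.6% of the genes detected in exosome RNA. Members had 3 probes each on average and named genes 2.12.

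**Figure D1:**
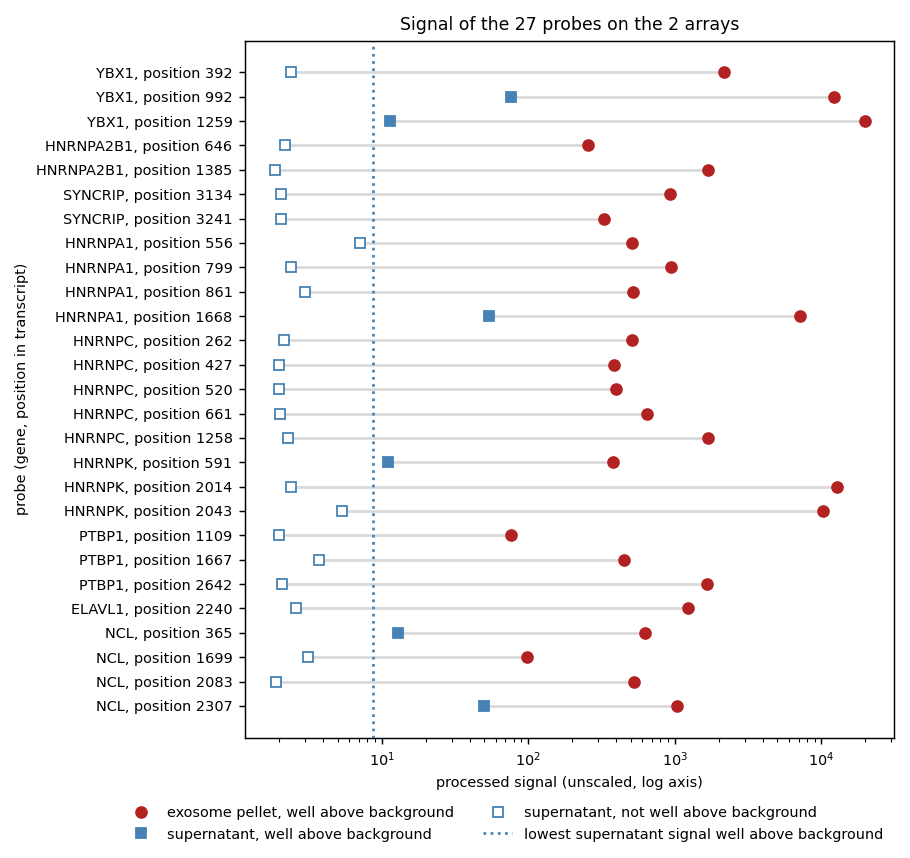
Processed signal (log axis, unscaled) of each of the 27 probes, with red circles for the exosome pellet and blue squares for the supernatant; open squares were not well above background and the dotted line is the lowest supernatant signal with that call, 8.75. The exosome signal lies right of the supernatant signal for every probe, and 6 squares are filled.

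Detection in the supernatant went with brightness in the exosome fraction, for members as for all probes. Of the 5 member probes with an exosome signal of at least 5000, 3 were detected in the supernatant, beside 57.3% of all such probes. Of the 6 between 1000 and 5000 it was 1, beside 29.4%, and of the 16 under 1000 it was 2, beside 16.3%. These signal classes were chosen after the values were seen.

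The size of every difference depended on how the arrays were scaled. The 75th percentile of signal was 248 in exosome and 5.24 in supernatant RNA, where it lay below the lowest detected signal of 8.75. Scaling each array to that percentile took 5.56 off every log2 difference. The median of the 3342 genes measured on both arrays was 3.51 log2 higher in exosome RNA before scaling, 11.4-fold, and -2.06 after it. The 8 spike-in probes measured on both, added RNAs outside the samples, had a median difference of 2.27, or 4.82-fold. Spike-in scaling, which takes each array's median spike-in level, took 2.09 off every difference. Differences below are therefore given unscaled, after 75th percentile scaling, and relative to the median gene. The scanner software's error of a single difference follows ±, and the 9 probes printed on 4 spots and measured on both arrays had a spot SD of 0.18 log2. Different probes of 1 gene had an SD of 1.71 log2 over 532 genes, so that 1 probe fixes a gene's difference only roughly. In a fraction, fewer vesicles or cells of a kind and less RNA in each cannot be told apart.

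YBX1, a cold shock domain protein that packages messenger RNA and takes part in microRNA export from human cells, had the highest difference of the 4 members measured on both arrays. Its probe at position 1259 read 19868 in exosome and 11.4 in supernatant RNA, a difference of 10.76 ± 0.34 log2 unscaled. The probe at position 992 read 12142 in exosome and 76.8 in supernatant RNA, a difference of 7.30 ± 0.21. Position 392, across an intron, read 2162 in exosome RNA, at least 247-fold above the supernatant, where 2.41 was not well above background. Such a bound divides the exosome signal by the dim probe's own supernatant signal or by 8.75, whichever is larger. Before scaling, the 3 exosome signals lay far above the 3 supernatant signals. The gene's mean over both measured probes was 9.03 log2 unscaled, 524-fold, 3.47 after 75th percentile scaling and 5.53 above the median gene. By rank it was number 173 of 3342, with 94.8% of the genes below it. That mean includes position 1259, whose supernatant signal of 11.4 was near the lowest detected one, 8.75. Stricter detection (4 times the lowest detected signal) kept position 992 alone, and YBX1 was then 1.74 after scaling and 3.92 above the median gene. The measured probes of the gene stood 3.46 log2 apart, against a scanner error of 0.40 for that gap, so the value depends on the probe.

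HNRNPA2B1, the GGAG-binding protein of human T cell exosomes and a splicing regulator, was detected in exosome RNA only. Its probe at position 1385 read 1675 in exosome and 1.86 in supernatant RNA, at least 191-fold higher unscaled. Position 646 read 257 in exosome and 2.17 in supernatant RNA, at least 29.3-fold. Neither supernatant signal reached the weakest detected one, and the gene's mean bound was at least 74.9-fold unscaled, 1.58-fold after 75th percentile scaling and 6.59-fold above the median gene. SYNCRIP, the GGCU-binding protein of mouse hepatocytes, also called hnRNP Q, was likewise detected in exosome RNA alone. It read 928 at position 3134 and 330 at position 3241 in exosome RNA, against 2.06 and 2.05 in supernatant RNA. Its mean bound was at least 63.2-fold unscaled, 1.34-fold after scaling and 5.56-fold above the median gene.

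HNRNPA1 shuttles between nucleus and cytoplasm, regulates splicing and binds some microRNA precursors. Its probe at position 1668 was bright in both fractions, with 7139 in exosome and 53.8 in supernatant RNA, a difference of 7.05 ± 0.21 unscaled. The probes at positions 556, 799 and 861 read 512, 939 and 520 in exosome RNA, against 7.10, 2.42 and 2.98 in supernatant RNA, and none of these 3 supernatant signals was well above background. Their lower bounds were 5.87, 6.74 and 5.89 log2 unscaled, all below the 7.05 (133-fold) of the measured probe. The difference was 1.49 after 75th percentile scaling and 3.55 above the median gene, number 498 in rank with 85.1% of the genes below. Between the YBX1 probe at position 992 and this probe the gap was 0.25 log2, with a scanner error of 0.30, so these neighbours in the order did not differ beyond that error.

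HNRNPC binds uridine tracts in nuclear pre-messenger RNA. Its 5 probes read 508, 385, 400, 646 and 1694 in exosome RNA at positions 262, 427, 520, 661 and 1258, against 2.14, 2.0, 1.98, 2.03 and 2.29 in supernatant RNA. All 5 were detected in exosome RNA and none in supernatant RNA. A further probe, which names HNRNPC only in its description, was detected in both fractions and is given under other observations. It was not used in counting the members detected in the supernatant. The bounds ran between 44.0-fold and 193-fold, and their mean was at least 69.9-fold unscaled, 1.48-fold after scaling and 6.14-fold above the median gene.

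HNRNPK binds C-rich stretches of RNA and DNA and, in human cells, has been tied to the loading of vesicles with small RNAs. Its probe at position 2014 read 12751 in exosome and 2.40 in supernatant RNA, and the one at position 2043 read 10309 in exosome and 5.39 in supernatant RNA. These 2 probes share 31 bases and are not independent; neither was detected in the supernatant, and their bounds were at least 1457-fold and 1178-fold. Position 591, across an intron, was detected in both fractions, with 381 in exosome and 11.0 in supernatant RNA, a difference of 5.11 ± 0.35. The gene's measured difference rests on that probe alone: 34.6-fold unscaled, -0.45 log2 after 75th percentile scaling and 1.60 above the median gene, number 1027 in rank with 69.3% of the genes below. The probe's supernatant signal of 11.0 was near the lowest detected one, 8.75, and stricter detection left HNRNPK unmeasured. The bounds of the other probes, at least 30.8-fold and 24.9-fold after scaling, lay above the scaled difference of the measured one, which was on the other side of 0. With undetected probes entered at their bounds, a look added after the values were seen, the gene's mean was at least 8.61 unscaled and 3.04 after scaling. The direction of HNRNPK after scaling was therefore set by which probes were counted.

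PTBP1 binds pyrimidine tracts and represses exons during splicing. Its probes at positions 1109, 1667 and 2642 read 76.5, 453 and 1650 in exosome RNA, against 2.0, 3.73 and 2.08 in supernatant RNA. All 3 were detected in exosome RNA alone, with bounds of at least 8.74-fold, 51.7-fold and 188-fold and a mean of at least 44.0-fold unscaled and 3.87-fold above the median gene. After 75th percentile scaling the mean bound was under 1, so no fold is given. The first 2 probes have no genome position in the files. The probe at position 2642 was placed on chromosome 23 in Btau_3.1, while the RefSeq gene table, of assembly ARS-UCD2.0, has PTBP1 on a different chromosome. The mean bound includes the probe at position 2642, which raised it. Relative to the median gene the bounds were -0.38, 2.18 and 4.05 log2 at positions 1109, 1667 and 2642. ELAVL1, which stabilises messenger RNAs with AU-rich elements and has been tied to microRNA export from human hepatic cells, had a single probe, at position 2240. It read 1227 in exosome and 2.59 in supernatant RNA, at least 140-fold higher unscaled, 2.96-fold after scaling and 12.3-fold above the median gene.

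NCL encodes nucleolin, a nucleolar protein of ribosomal RNA processing that also binds messenger and microRNAs. The probe at position 2307 read 1036 in exosome and 50.04 in supernatant RNA, a difference of 4.37 ± 0.21, and the probe at position 365 read 630 in exosome and 12.9 in supernatant RNA, a difference of 5.61 ± 0.33. Positions 1699 and 2083 read 98.6 and 530 in exosome RNA, with bounds of 11.3-fold and 60.5-fold over the supernatant, where 3.13 and 1.90 were not well above background. All 4 probes were higher in exosome RNA before scaling. The mean of the measured probes was 4.99 unscaled, 31.8-fold, -0.57 after 75th percentile scaling and 1.48 above the median gene, number 1077 in rank with 67.8% of the genes below. After that scaling position 365 stood at 0.04 and position 2307 at -1.19. The scaled bounds were 0.36 at position 2083 and -2.07 at position 1699. The direction of NCL after scaling therefore also depended on the probe. Stricter detection kept position 2307 alone.

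**Figure D2:**
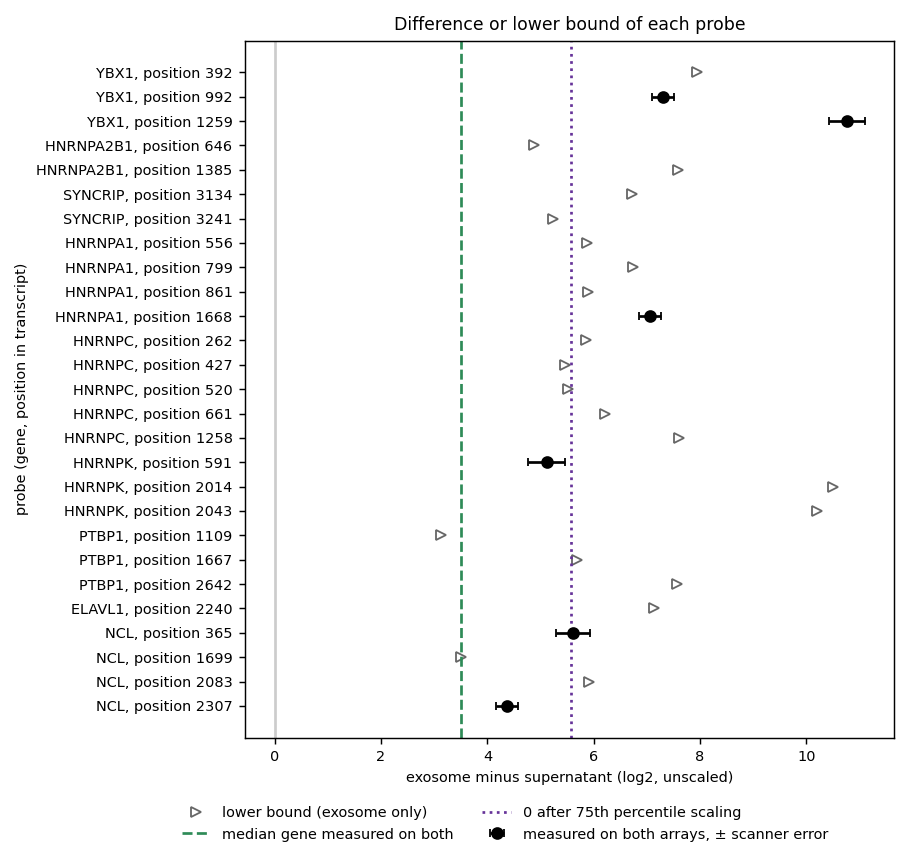
Exosome minus supernatant difference (log2, unscaled) of each probe: black points with the scanner error for the 6 probes measured on both arrays, open triangles for lower bounds of the 21 others. The dashed line is the median gene at 3.51 and the dotted line, at 5.56, is where 0 falls after 75th percentile scaling; the HNRNPK point at 5.11 lies left of the dotted line and the gene's triangles right of it.

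In order of the gene means over probes detected in both fractions, YBX1 came first, then HNRNPA1, HNRNPK and NCL. That first place was lost when dim probes were counted: after 75th percentile scaling with the software's weaker flag, HNRNPC was 3.97, HNRNPK 3.90 and YBX1 3.47, and with no filter HNRNPK was 3.90 and YBX1 3.73. Among the single probes, the NCL probe at position 365 stood 0.50 above that of HNRNPK at position 591, with a scanner error of 0.47 for the gap. That HNRNPK probe in turn stood 0.74 above the NCL probe at position 2307, with an error of 0.40. HNRNPK thus lay between the probes of NCL, and no order of these genes holds over their probes. The step between the HNRNPA1 probe and the higher NCL probe was 1.45, with an error of 0.39. That error does not cover the spread between probes of 1 gene, an SD of 1.71 log2, which is larger than this step.

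The 4 members with a measured difference each exceeded the median gene by 2-fold or more, as did 37.2% of all genes so measured. That call was lost for NCL with the brightest probe per gene, at 0.82, and with stricter detection, at 0.99, and for HNRNPK with normexp background correction, at 0.42. After 75th percentile scaling, 2 of the 4, YBX1 and HNRNPA1, were at least 2-fold higher in exosome RNA, as were 18.3% of all genes. The 4 members had a median of 6.08 unscaled, 0.52 after scaling and 2.57 above the median gene.

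**Figure D3:**
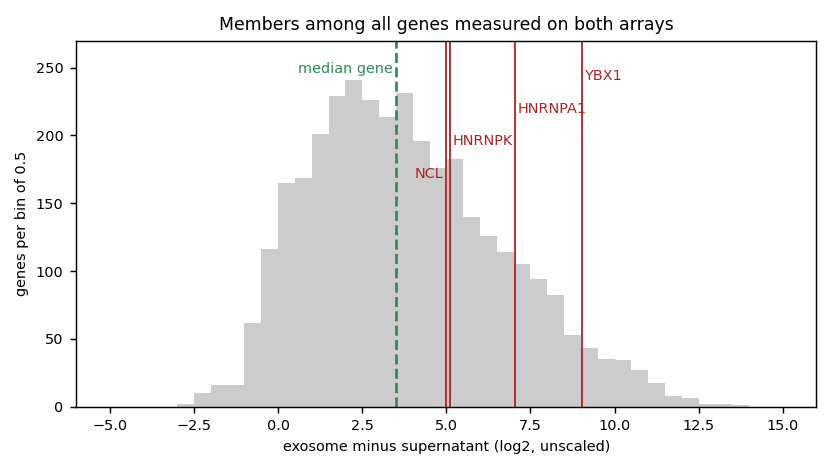
Number of genes in each bin of 0.5 log2 of the unscaled exosome minus supernatant difference, for the 3342 genes measured on both arrays. Red lines mark NCL at 4.99, HNRNPK at 5.11, HNRNPA1 at 7.05 and YBX1 at 9.03, all right of the dashed line of the median gene at 3.51.

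The sign of HNRNPK and NCL followed the scaling, while YBX1 and HNRNPA1 were higher in exosome RNA under each scaling run. HNRNPK was 3.03 with spike-in scaling, 1.62 with each array's median and -1.03 with quantile normalisation. NCL was 2.90, 1.50 and -1.48 under the same settings. HNRNPA1 was lowest, at 0.34, and YBX1 at 2.42, with quantile normalisation. Scalings that subtract 1 constant per array could not change a member's value relative to the median gene. Only quantile normalisation and normexp could, and with both all 4 stayed above the median gene of the setting. The lowest were NCL at 1.25 with quantile normalisation and HNRNPK at 0.42 with normexp.

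**Figure D4:**
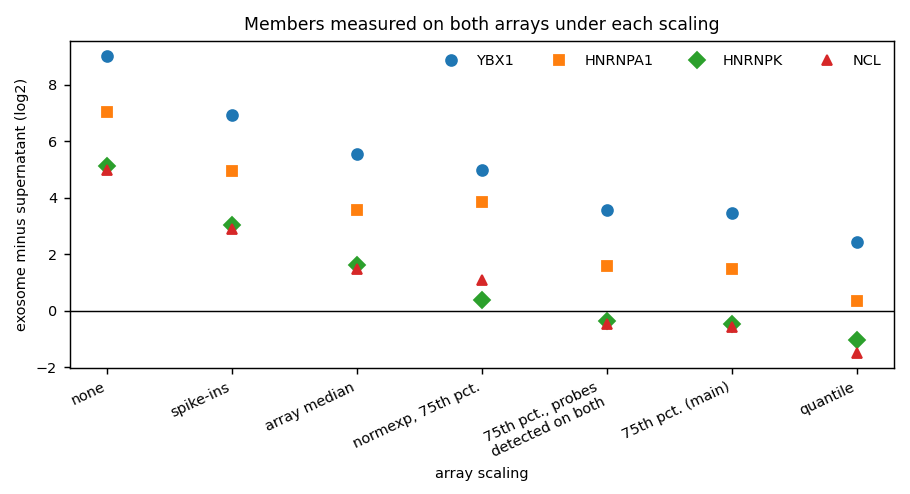
Exosome minus supernatant difference (log2) of YBX1, HNRNPA1, HNRNPK and NCL with each scaling of the arrays. HNRNPK and NCL lie above 0 with no scaling, spike-in, median and normexp scaling, and below 0 with 75th percentile and quantile scaling; YBX1 and HNRNPA1 lie above 0 in each.

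The member probes had a median GC content of 43.3%, between 35% and 45%, beside 45% over all probes. The 6 probes detected in the supernatant had a median of 41.7% and the other 21 one of 43.3%. None held a run of 5 G, and the longest run was 4. Over all probes, those with such a run were detected in the supernatant in 37.7% of cases and those without it in 12.4%. The motif GGAG stood in 6 of 27 member probes on the probe strand, 22.2%, beside 24.6% of all probes, and in 4 on the other strand, 14.8%, beside 21.1%. GGCT stood in 2 on the probe strand, 7.41%, beside 18.1%, and in 4 on the other strand, 14.8%, beside 19.5%. ATTTA, the core of an AU-rich element, stood in 0 on the probe strand, beside 7.45%, and in 2 on the other strand, 7.41%, beside 8.68%. No match overlapped one of another motif. A match describes the probe's letters only.

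Other RNA-binding genes were grouped as relatives of these proteins. Of 22 other hnRNP and poly(C)-binding genes on the array, 21 were detected in exosome RNA and 7 in supernatant RNA, and 14 in exosome RNA alone. Among the 7 measured on both, 6 exceeded the median gene by 2-fold or more and 0 lay that far below it, and the list's median was 3.79. Of all genes measured on both, 37.2% exceeded the median gene so. Their lower quartile, 1.67 unscaled, lay more than 2-fold below the median gene's 3.51. In the list, PCBP1 and PCBP2, which bind C-rich RNA, were highest at 6.78 and 4.52 above the median gene. HNRNPUL2 and HNRNPH3, a splicing factor, were lowest at 0.57 and 1.18. Each of the 7 rests on 1 probe measured in both fractions. The supernatant signals were 10.6 for PCBP1, 14.7 for PCBP2, 12.2 for HNRNPUL2 and 10.1 for HNRNPH3. These were not far above the lowest detected signal of 8.75.

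Of 5 close relatives of the members on the array, 4 were detected in exosome RNA and 2 in supernatant RNA. YBX3, a cold shock domain protein like YBX1, was detected in exosome RNA alone, with a brightest probe of 8860 in exosome RNA, against at most 7.52 in supernatant RNA. PTBP2, the neuronal relative of PTBP1, reached 17.5 in exosome RNA and was not well above background in supernatant RNA. ELAVL4, of the neuronal ELAVL group, was detected in neither. ELAVL3, of the same group, stood at -1.78 log2 relative to the median gene, and YBX2, the germ cell relative of YBX1, at -4.12. The YBX2 difference was -0.61 before scaling, on 1 probe measured in both fractions. These are single genes, and no test of a difference from the members was made.

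Of 33 other RNA-binding genes whose proteins have been found with vesicle RNA, 30 were detected in exosome RNA and 8 in supernatant RNA. Among the 8 measured on both, 4 exceeded the median gene by 2-fold or more and 4 lay that far below it, and the list's median was 0.06. Of all genes measured on both, 37.2% exceeded the median gene so, and their lower quartile also lay more than 2-fold below it. In the list, NPM1, a nucleolar chaperone, was highest at 4.60 above the median gene. The lowest were LIN28B, which blocks let-7 maturation, at -3.55 and IGF2BP3, a messenger RNA-binding protein, at -3.25. Both were dim: LIN28B read 12.2 in exosome and 12.6 in supernatant RNA, and the brightest IGF2BP3 probe signals were 16.5 in exosome and 12.1 in supernatant RNA.

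**Figure D5:**
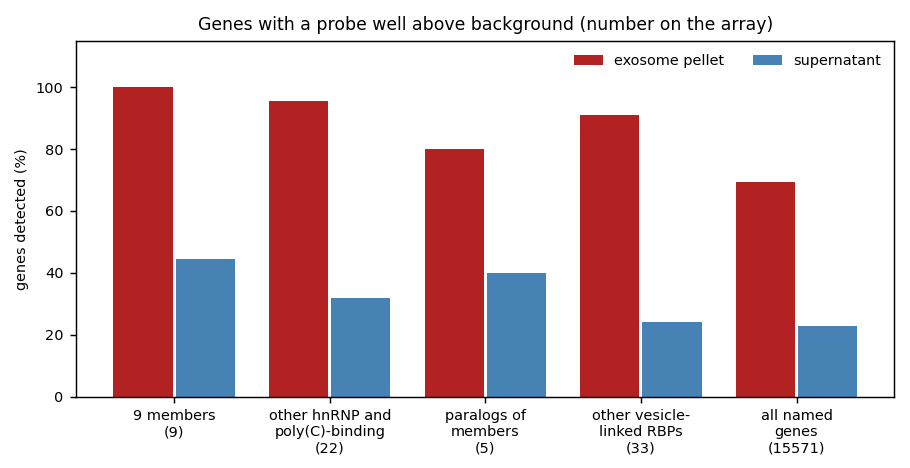
Share of genes (%) with a probe well above background, red bars for the exosome pellet and blue bars for the supernatant, for the 9 members, 3 lists of other RNA-binding genes and all 15571 named genes. Members reach 100% in exosome and 44.4% in supernatant RNA, and all named genes 69.2% in exosome and 22.9% in supernatant RNA.

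The cell types that milk can hold were followed by marker lists. Of 9 secretory epithelium markers 9 were detected in exosome and 8 in supernatant RNA, and of 6 luminal markers 6 in exosome and 3 in supernatant RNA. For leukocytes it was 6 of 10 in both fractions, with CD3E, CXCR2, ITGAM and CSF3R detected in neither, and for myoepithelium 4 of 6 in exosome and 3 of 6 in supernatant RNA, with KRT5 and TP63 in neither. Of 3 red blood cell genes, HBA was detected in both and HBB and ALAS2 in neither. Summed over all probes of a list, the signal was 3945280 in exosome and 4842 in supernatant RNA for secretory epithelium. For luminal epithelium it was 101375 in exosome and 542 in supernatant RNA. It was 7905 in exosome and 4498 in supernatant RNA for leukocytes, of which LYZ, the lysozyme gene, held 5406 in exosome and 3580 in supernatant RNA. Without LYZ, a look added after the values were seen, the leukocyte sums were 2499 in exosome and 918 in supernatant RNA. For myoepithelium it was 687 in exosome and 354 in supernatant RNA, and for red blood cells 23463 in exosome and 1143 in supernatant RNA. CSN2, the beta-casein gene, was 7.17 above the median gene and PTPRC, the pan-leukocyte CD45, stood at -2.26. The 3 luminal genes measured in both fractions lay on both sides of the median gene: the keratins KRT19 and KRT8 were 5.82 and 1.67 above it, and CLDN4 stood at -0.85. The part of cell makeup in the members' differences was not tested.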

How the data were processed

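RNA of 2 whey fractions was measured on 1-colour Agilent bovine arrays. The deposited intensity values are processed signals of Agilent Feature Extraction 10.7.3.1, with background subtracted per array, as the file headers record; no scaling from one array to the other is stated. The authors' deposited log2 table equalled the log2 of these signals within 1.9e-06 for 43602 single-spot probes. Control spots and 5 exosome and 2 supernatant outlier spots were left out, none of a member, and no member spot was saturated. Each array's 75th percentile was subtracted on the log2 scale. A gene's difference was the mean over its probes well above background on both arrays, and a bound stands where only exosome RNA was detected. The size call was 2-fold.

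The members and gene lists were chosen with earlier results of these data known. Every member was named with all its probes, and from other RNA-binding lists the 2 highest and 2 lowest measured genes; cell type lists are given as counts, with CSN2, KRT8 and PTPRC by value, and KRT19, CLDN4 and LYZ named after their values were seen. A gene and a probe sequence that these rules take are not reported here. The planned rule for printing sequences needed protein sequences, which were not used here, so probes were chosen by introns and measurement after values were seen. Names are those of the files. The number of arrays limits the precision. Python 3.11.15, pandas 2.3.3, numpy 2.4.6, matplotlib 3.10.9, and R 4.3.3 with limma 3.58.1 for normexp were used. The calculation was tested on simulated data with the same probes detected in both fractions. Loss of probes in the supernatant and the bounds were therefore not tested by it. Alternatives were other scalings, background correction, detection rules, probe choices and names.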

Additional observations from a re-analysis of the deposited data

How the results depend on the processing

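Over 14 alternatives set at the start and 1 added later, 9 results gave 94 values. Of these, 52 stayed as reported, 29 moved without a change of sign and 13 changed sign. Part of the 52 was fixed in advance and does not speak for stability. The authors' table holds the same signals, no member spot was an outlier, and no member probe held a run of 5 G. The 27 exosome-detected probes, 9 exosome-detected genes and 4 supernatant-detected genes stayed within 1.5 times. Member probes detected in the supernatant were 3 under a stricter rule (4 times the lowest detected signal) and 13 with the software's weaker flag, which 46.5% of all probes had. The members' median difference of 0.52 became 6.08 without scaling, 4.00 with spike-in scaling, 2.59 with median scaling, 2.48 with normexp (offset 50) and -0.35 with quantile normalisation. It became 2.63 with no filter on dim probes, 2.42 with the weaker flag and 1.49 with stricter detection, where HNRNPK was not measured. HNRNPK, -0.45 after 75th percentile scaling, turned to 5.11 without scaling, 3.03 with spike-ins, 1.62 with median scaling, 3.90 both with no filter and with the weaker flag, 0.37 with normexp, and 3.04 with undetected probes at their bounds, added after seeing the data. NCL, at -0.57, turned to 4.99 without scaling, 2.90 with spike-ins, 1.50 with median scaling, 1.10 with normexp and 0.21 with no filter. The brightest measured probe, by its log2 signals summed over both arrays, was position 992 for YBX1 and gave 1.74. Percentile, median and spike-in scaling subtract 1 constant per array, so they could not change a member's value relative to the median gene. Detection rules and probe choice changed which probes were counted. HNRNPK gained positions 2014 and 2043 with the weaker flag and with no filter. YBX1 lost position 1259 with stricter detection and with the brightest probe. The cause of the remaining changes was not tested. Each measured member stayed above the median gene of its setting, but in 3 of 15 settings not all by 2-fold: NCL was 0.82 with the brightest probe and 0.99 with stricter detection, and HNRNPK 0.42 with normexp. No paired analysis was possible because each fraction has 1 array.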

Other observations

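A further 8 probes name a member only in their description and were counted apart after the data were seen. For SYNCRIP, 3 such probes read 192, 1810 and 193 in exosome RNA, against 1.83, 2.20 and 3.77 in supernatant RNA, so all 3 were detected in exosome RNA alone, as were the 2 probes under the gene's name. For HNRNPC, a probe to an assembled consensus transcript read 2531 in exosome and 21.5 in supernatant RNA. It was well above background in both, with a difference of 6.88 log2 unscaled, while the 5 probes under the gene's name were detected in exosome RNA alone. A probe to an HNRNPC-like predicted gene read 2.81 in exosome and 2.26 in supernatant RNA and was detected in neither. The 3 probes to predicted HNRNPA2B1-like transcripts were detected in neither fraction, with signals of at most 2.95 in exosome and 3.78 in supernatant RNA.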
